A study of Mus musculus with 180 samples.

Results

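The 10 genes described here encode subunits of NF-κB and the proteins that hold it in check. They are the subunit genes *Nfkb1*, *Nfkb2*, *Rel* and *Relb*, the IκB genes *Nfkbia*, *Nfkbib*, *Nfkbie* and *Nfkbiz*, and *Tnfaip3* and *Tnip1*, whose products act on ubiquitin chains upstream of the IκB kinases. They were chosen by their symbols, and each has 1 row among the 45070 genes of the deposited table. All 10 passed the filter for testing, which asked for a mean of 10 or more across the samples and left 12714 genes.

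The cells were bone marrow-derived macrophages (BMDMs), grown in culture from the marrow of wild type male C57/BL6 mice of 6 to 8 weeks. They received 1 of 58 clinical kinase inhibitors (CKIs) or the vehicle DMSO for 1 h, and LPS at 10 ng/mL was then added for 2 h in every group, DMSO included. Each CKI has 3 samples and DMSO has 6, in 2 sets of 3, which gives 180 samples in 59 groups. No unstimulated cells are compared here, so a lower value with a CKI can be a weaker induction by LPS or a lower level before it, and these cannot be told apart. In RNA from whole cultures, fewer cells and less RNA per cell cannot be told apart either. The CKIs were used at different concentrations, so they are given side by side and none was tested against another.

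NF-κB is a family of dimeric transcription factors that IκB proteins keep in the cytoplasm. LPS binds TLR4, the IκB kinases mark IκB for destruction, and the freed dimers enter the nucleus and switch on inflammatory genes. Among the genes they switch on are those of their own inhibitors and of several subunits, which is why this family is known for feedback. *Nfkb2* and *Relb* encode the subunits of the non-canonical arm, while *Rel* and the p50 product of *Nfkb1* act in the fast canonical arm.

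The values are reads on exons that the authors scaled on genes with little variation between samples and rounded to whole numbers, called normalized values below. Their sum per sample was 9481416 to 11094387 in DMSO and 9477340 to 12273349 with CKIs. All 8 macrophage markers passed the filter, and their summed normalized value was 99709 to 216444 in DMSO and 85635 to 250475 with CKIs. The 3 T cell markers summed to at most 3 and the 3 B cell markers to at most 5 in any sample. Of 4 neutrophil markers 3 passed the filter, and the 4 summed to 132 to 322 in DMSO and 76 to 865 with CKIs. Of 4 fibroblast markers 2 passed, with sums of 19 to 147 in DMSO and 3 to 222 with CKIs. Dendritic cell markers summed to at most 43, endothelial to 17, NK cell to 8, erythroid to 3 and mast cell to 1. The share of mitochondrially encoded transcripts was 0.759 to 1.94% in DMSO and 0.525 to 4.47% with CKIs. DMSO set 2 replicate 2 was the highest DMSO sample for 8 of the 10 genes, and calls of these 10 genes that rest on it are marked. For other single genes named below this is not marked. Between the 2 DMSO sets limma called 0 of 12714 genes, with 310 at an unadjusted p under 0.05.

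Per kilobase of transcript, a scale on which genes can be compared, *Nfkbia* was by far the highest of the 10 in DMSO, at 23453 ± 2379 normalized values per kb (SD, n = 6). The product of *Nfkbia*, IκBα, is the IκB that is destroyed and remade fastest after LPS. It exceeded 99.8% of all genes tested. *Nfkbiz* followed at 2913 ± 549 per kb, then *Nfkbib* at 2360 ± 385, *Nfkbie* at 1872 ± 264, *Tnfaip3* at 1294 ± 441, *Nfkb2* at 1187 ± 233, *Relb* at 1147 ± 432 and *Tnip1* at 800.2 ± 73.1. *Rel* stood at 585 ± 141 per kb, and *Nfkb1* was the lowest at 169 ± 8.29 per kb, above 70.4% of the genes tested. In this order the ranges of *Nfkbia* and *Nfkbiz* did not overlap, nor did those of *Rel* and *Nfkb1*, while every other pair of neighbours overlapped over the 6 samples.

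NF-κB binds the κB consensus, and the RefSeq promoter windows (build GRCm38.p6, the build mm10 of the deposited table) show where that consensus stands near the starts of these genes. Each window runs from 250 bases before to 50 bases after a start. A window was found for 7 of the 10 genes, with 10 windows in all, and *Nfkbiz*, *Nfkb1* and *Relb* had none. The consensus was searched on both strands with overlaps allowed. It matched in 8 of these 10 windows and in 6 of the 7 genes, and in 8.46% of all 32851 windows of this length. That share is by window, and none by gene is given. *Nfkb2* also had windows at chr19:46305445-46305744 and chr19:46305680-46305979, which overlap. Both hold the same GGGACTTTCC, from 11 to 20 of the first and from -225 to -216 of the second, which has no other match. *Tnfaip3* also had a window without a match. The 5 windows below are shown because they belong to the gene most often lower with CKIs (*Nfkb2*) and the gene most often higher (*Tnip1*) with all samples, and to *Tnfaip3*, *Nfkbia* and *Rel*. Each is written 5′ to 3′ on the strand of its gene, and capitals mark the bases inside a match.
Nfkb2, chr19:46304487-46304786, plus strand: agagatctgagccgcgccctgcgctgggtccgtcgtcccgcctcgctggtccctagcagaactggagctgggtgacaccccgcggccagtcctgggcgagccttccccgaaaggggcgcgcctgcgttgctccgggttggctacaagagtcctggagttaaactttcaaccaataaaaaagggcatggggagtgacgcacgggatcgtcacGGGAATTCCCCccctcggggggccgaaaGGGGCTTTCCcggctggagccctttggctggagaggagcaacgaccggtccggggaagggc
Tnip1, chr11:54962891-54963190, minus strand: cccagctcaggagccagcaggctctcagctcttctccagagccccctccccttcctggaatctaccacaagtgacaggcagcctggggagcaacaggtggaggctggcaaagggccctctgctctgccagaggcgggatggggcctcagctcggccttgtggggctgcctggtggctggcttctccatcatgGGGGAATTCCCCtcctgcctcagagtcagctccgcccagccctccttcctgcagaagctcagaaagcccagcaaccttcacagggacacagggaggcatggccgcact
Tnfaip3, chr10:19015361-19015660, minus strand: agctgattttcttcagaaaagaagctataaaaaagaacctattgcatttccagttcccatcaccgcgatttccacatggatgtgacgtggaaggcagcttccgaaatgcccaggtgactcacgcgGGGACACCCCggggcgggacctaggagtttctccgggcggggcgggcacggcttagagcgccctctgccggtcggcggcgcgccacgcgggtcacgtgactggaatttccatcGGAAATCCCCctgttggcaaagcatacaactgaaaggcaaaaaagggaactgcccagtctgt
Nfkbia, chr12:55492598-55492897, minus strand: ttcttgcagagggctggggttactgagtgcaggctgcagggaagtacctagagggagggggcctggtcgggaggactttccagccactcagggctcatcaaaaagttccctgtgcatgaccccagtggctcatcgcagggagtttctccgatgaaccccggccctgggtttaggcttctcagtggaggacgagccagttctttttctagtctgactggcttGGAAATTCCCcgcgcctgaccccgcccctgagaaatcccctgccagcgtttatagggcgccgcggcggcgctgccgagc
Rel, chr11:23770920-23771219, minus strand: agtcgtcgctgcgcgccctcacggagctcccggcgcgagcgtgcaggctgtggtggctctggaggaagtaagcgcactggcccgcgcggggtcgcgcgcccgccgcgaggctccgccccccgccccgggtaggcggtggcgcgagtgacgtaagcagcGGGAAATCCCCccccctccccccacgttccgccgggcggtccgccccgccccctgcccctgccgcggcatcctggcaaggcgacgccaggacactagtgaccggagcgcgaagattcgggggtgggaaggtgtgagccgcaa

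The same 10 letters, GGGAATTCCC, lie in the windows of *Nfkb2* and *Tnip1*, from base -39 to -30 of the first and from base -57 to -48 of the second, counted from the start. In *Nfkb2* a further match, GGGGCTTTCC, lies from -11 to -2. *Tnfaip3* holds GGAAATCCCC from -12 to -3, and *Nfkbia* holds GGAAATTCCC from -29 to -20, both matching on the opposite strand. In *Rel* the match GGGAAATCCC lies from -92 to -83. The window of *Nfkbie* also had a match, GGGGGATTCC, and that of *Nfkbib* had none. A match describes the letters and does not show that NF-κB was bound.

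CKIs were tested one at a time against all 6 DMSO samples by limma on log2(normalized value + 1), in 1 fit over all 59 groups, with p-values adjusted over the 12714 genes within a CKI. A gene was called higher or lower at an adjusted p under 0.05. Of the 580 pairs of gene and CKI, 18 were called higher (3.1%) and 41 lower (7.07%). Over all genes tested, 2.52% of the pairs were called higher and 1.65% lower. Among the 2447 genes with a mean at or above that of *Nfkb1*, the lowest of the 10 with 744 normalized values, the shares were 3.18% higher and 2.56% lower. In this fit the share of the 10 genes called higher lay near the share for genes of their level. In the same fit the share called lower lay above it. The calls fell on 17 of the 58 CKIs, and in 41 of the 59 called pairs all 3 CKI samples lay beyond the 6 DMSO samples.

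In every alternative tried except a threshold of 1 on the log2 fold change, 10 of the 59 calls held. These were *Nfkbia* with Pimasertib, *Nfkbie* with Omipalisib and Filgotinib, *Nfkbiz* with Afatinib and Midostaurin, *Tnfaip3* and *Relb* with Afatinib, and *Nfkb2* with Pimasertib, AZD2014 and Filgotinib. The split between higher and lower depended on the scaling. When samples were scaled again by the median of ratios, 6 pairs were called higher and 46 lower. The median log2 scaling factor of a CKI exceeded that of DMSO by up to 0.227, with BGT226. The excess was 0.128 with Lapatinib, 0.120 with Omipalisib and 0.162 with Pimasertib. Log2 fold changes compare means and not medians, so they fell by other amounts. Rises of this order are relative to the deposited scaling. Without DMSO set 2 replicate 2 the calls were 13 higher and 24 lower, without DMSO set 1 replicate 3 they were 9 higher and 45 lower, and without DMSO set 2 replicate 3 they were 10 higher and 39 lower. In 34 CKIs every sample deviated from its group together with the DMSO samples of the same replicate number. With the number as a block, their calls went from 4 higher and 23 lower to 5 higher and 37 lower. Counts under other fits, here and below, stand without the share of all genes called in that fit unless it is given.

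**Figure D1:**
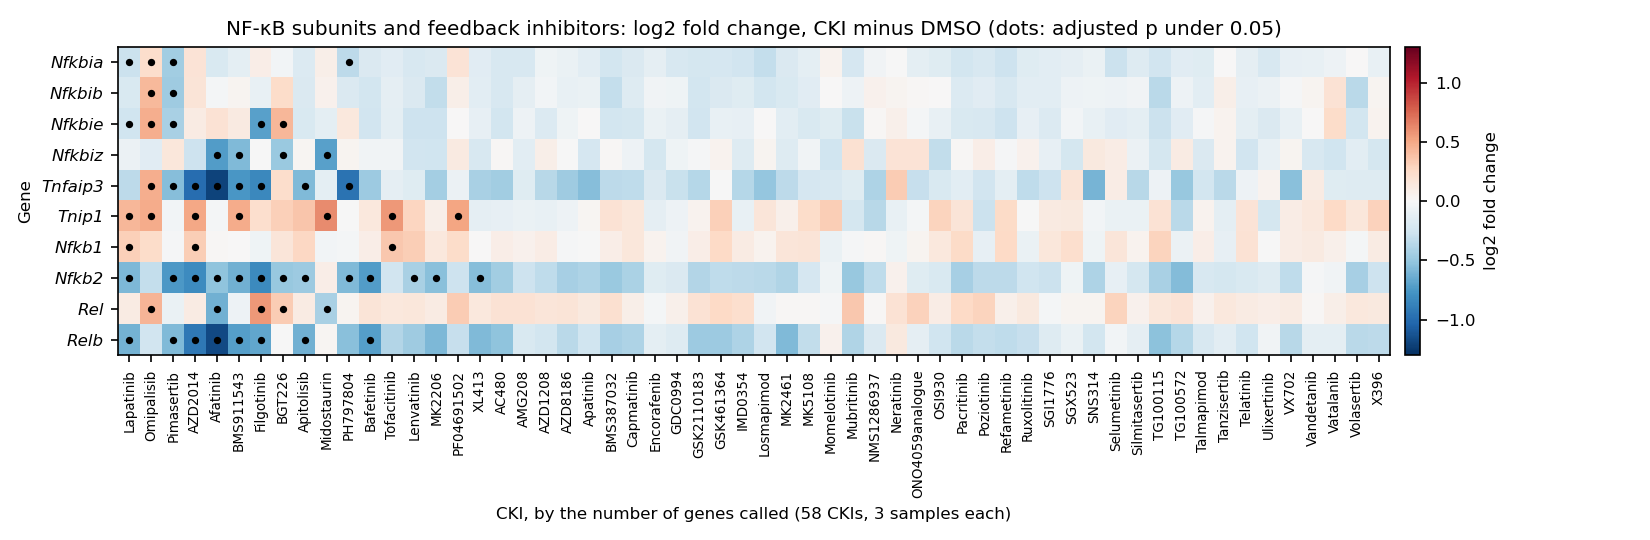
Log2 fold change of each of the 10 genes (rows) with each of the 58 CKIs (columns, ordered by the number of genes called) against the 6 DMSO samples, in colour from blue (lower) to red (higher), with dots on the 59 called pairs. Calls stand in 17 CKIs, the row of *Nfkb2* holds 13 dots, all lower, and the row of *Tnip1* holds 7, all higher.

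With all samples, the genes lower with the most CKIs were *Nfkb2* (13), *Relb* (8) and *Tnfaip3* (7), and their order changed with the fit. Without DMSO set 1 replicate 3 the numbers were 11, 8 and 12, without DMSO set 2 replicate 2 they were 8, 2 and 5, and under the replicate block they were 18, 10 and 11. *Nfkb2* (chr19:46304737-46312090, plus strand), which encodes p100, the precursor of p52, was lower with 13 CKIs. Its normalized values in DMSO ran from 3201 over a median of 3618 to 5231. With Filgotinib, a JAK1 inhibitor, they were 1943, 2246 and 2314, and with AZD2014, an mTOR inhibitor, they were 1970, 2317 and 2263. With Pimasertib, a MEK inhibitor, they were 2099, 2668 and 2168. All 9 of these samples lay below every DMSO sample. The log2 fold changes, each with an SE of 0.15, were -0.83 with Filgotinib (adjusted p = 8e-06), -0.82 with AZD2014 (adjusted p = 6.23e-06) and -0.74 with Pimasertib (adjusted p = 0.000313).

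The other falls of *Nfkb2* came with Bafetinib, BMS911543, Lapatinib, PH797804, XL413, MK2206, Afatinib, BGT226, Apitolisib and Lenvatinib, with log2 fold changes from -0.72 to -0.42. In Bafetinib the 3 samples spread from 1734 to 2914, and in BMS911543 from 1857 to 3115. With Midostaurin *Nfkb2* stood at 4157, 4377 and 3765, inside the DMSO range. Over the 58 CKIs the median log2 fold change of *Nfkb2* was -0.34, and that of all genes and CKIs was 0.0621. The DMSO mean, 3906 ± 766 (SD, n = 6), was the third highest of the 59 groups, and every CKI was set against this same mean. Without DMSO set 2 replicate 2, which had the 5231, *Nfkb2* was lower with 8 CKIs, and the calls with Apitolisib, Lenvatinib, MK2206, PH797804 and XL413 were lost (adjusted p between 0.0895 and 0.287). Those with Lenvatinib, MK2206 and XL413 were also lost without DMSO set 1 replicate 2 (adjusted p between 0.0811 and 0.114), and those with Lenvatinib and MK2206 without set 1 replicate 3 or set 2 replicate 3 (adjusted p between 0.0560 and 0.0666). The mitochondrial share was 2.07 to 3.70% with Lenvatinib and 1.18 to 4.01% with MK2206, and with that share and the replicate number in the fit the adjusted p of *Nfkb2* was 0.342 and 0.106. The table also holds 4833438C02Rik on the opposite strand of the same stretch, with a mean of 298 against 3097 for *Nfkb2*, and a share of reads between them is uncertain because no source says whether strand was used in counting.

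*Relb* (chr7:19606222-19629438, minus strand), whose product pairs with p52, was lower with 8 CKIs. In DMSO it ran from 1793 over a median of 2163 to 4280. With Afatinib, an EGFR family inhibitor, it was at 1039, 946 and 1219, and with AZD2014 at 1197, 1119 and 1514. All 6 samples lay below the lowest DMSO sample, and the means were 1068 ± 139 and 1277 ± 209 (SD, n = 3). The log2 fold change was -1.18 with Afatinib (SE 0.20, adjusted p = 4.7e-06) and -0.92 with AZD2014 (adjusted p = 0.000205). With Bafetinib *Relb* was at 1118, 1682 and 1672, a change of -0.71 (adjusted p = 0.0367).

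BMS911543, Filgotinib, Apitolisib, Lapatinib and Pimasertib made up the remaining calls of *Relb*, between -0.71 and -0.58. These and the call with Bafetinib rest on DMSO set 2 replicate 2, which had the 4280. Without that library *Relb* was lower with 2 CKIs, the change with Bafetinib was -0.55 (adjusted p = 0.271), and the adjusted p of the others lay between 0.0749 and 0.160. Without DMSO set 1 replicate 2 it was lower with 5 CKIs, and the calls with Bafetinib, Apitolisib and Pimasertib were lost (adjusted p between 0.0571 and 0.0888). The mitochondrial share with Bafetinib was 0.715 to 4.47%, and with that share and the replicate number in the fit the adjusted p of *Relb* was 0.0926. The within-group SD of *Relb* on the log2 scale, 0.29, was the largest of the 10 genes, beside a median of 0.215 over genes at or above the level of *Nfkb1*.

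The canonical subunits moved in smaller numbers and in both directions. *Rel* (chr11:23736847-23770969, minus strand) encodes c-Rel, a subunit prominent in immune cells. Its DMSO values ran from 2492 over a median of 4586 to 5420, and the 2492 came from DMSO set 1 replicate 3. With Filgotinib *Rel* was at 6463, 6188 and 6164, and with Omipalisib, a PI3K and mTOR inhibitor, at 5817, 5930 and 5533. These 6 samples were all above the highest DMSO sample. *Rel* rose by 0.56 with Filgotinib (SE 0.13, adjusted p = 0.000736) and by 0.44 with Omipalisib (adjusted p = 0.00777) on the log2 scale. BGT226, with 5535, 5874 and 4698, was also called (0.33, adjusted p = 0.0442).

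*Rel* fell with Afatinib, to 2584, 2241 and 3587 (-0.63, adjusted p = 0.000199), and with Midostaurin, to 3135, 3163 and 3197 (-0.42, adjusted p = 0.0432). The samples of both overlapped the DMSO range only through its lowest sample, DMSO set 1 replicate 3. Without that library *Rel* was higher with 1 CKI, the change with Omipalisib was 0.29 (adjusted p = 0.0913) and that with BGT226 was 0.18 (adjusted p = 0.309). The call with BGT226 was also lost without DMSO set 2 replicate 3 (adjusted p = 0.0736). The call with Midostaurin was lost without set 1 replicate 1, set 1 replicate 2, set 2 replicate 1 or set 2 replicate 2 (adjusted p between 0.0688 and 0.163), and *Rel* was then lower with 1 CKI. Of the 10 genes *Rel* differed most between the DMSO sets, with 3888 in set 1 and 4851 in set 2 (log2 difference 0.36, unadjusted p = 0.0175, adjusted p = 1).

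*Nfkb1* (chr3:135584655-135691547, minus strand), which encodes p105, the precursor of p50, was the steadiest in DMSO, from 658 over a median of 684.5 to 741. With Tofacitinib, a JAK inhibitor, it was at 911, 902 and 841, with AZD2014 at 878, 780 and 954, and with Lapatinib, an EGFR and HER2 inhibitor, at 795, 930 and 866. All 9 samples were above the DMSO samples. The rises were small, at 0.35 (adjusted p = 0.0429), 0.32 (adjusted p = 0.0369) and 0.31 (adjusted p = 0.0406) on the log2 scale, with an SE of 0.12. None of the 3 held when DMSO set 1 replicate 3, set 2 replicate 2 or set 2 replicate 3 was left out, where the adjusted p lay between 0.0530 and 0.101. Without set 1 replicate 1 only the rise with Tofacitinib remained, and those with AZD2014 (adjusted p = 0.0540) and Lapatinib (adjusted p = 0.0512) did not. With Tofacitinib, where the mitochondrial share was 1.35 to 4.01%, the adjusted p of *Nfkb1* was 0.374 in the fit with that share and the replicate number. The table lists Gm46827 on the opposite strand of the same stretch, at a mean of 42.1 against 744 for *Nfkb1*.

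**Figure D2:**
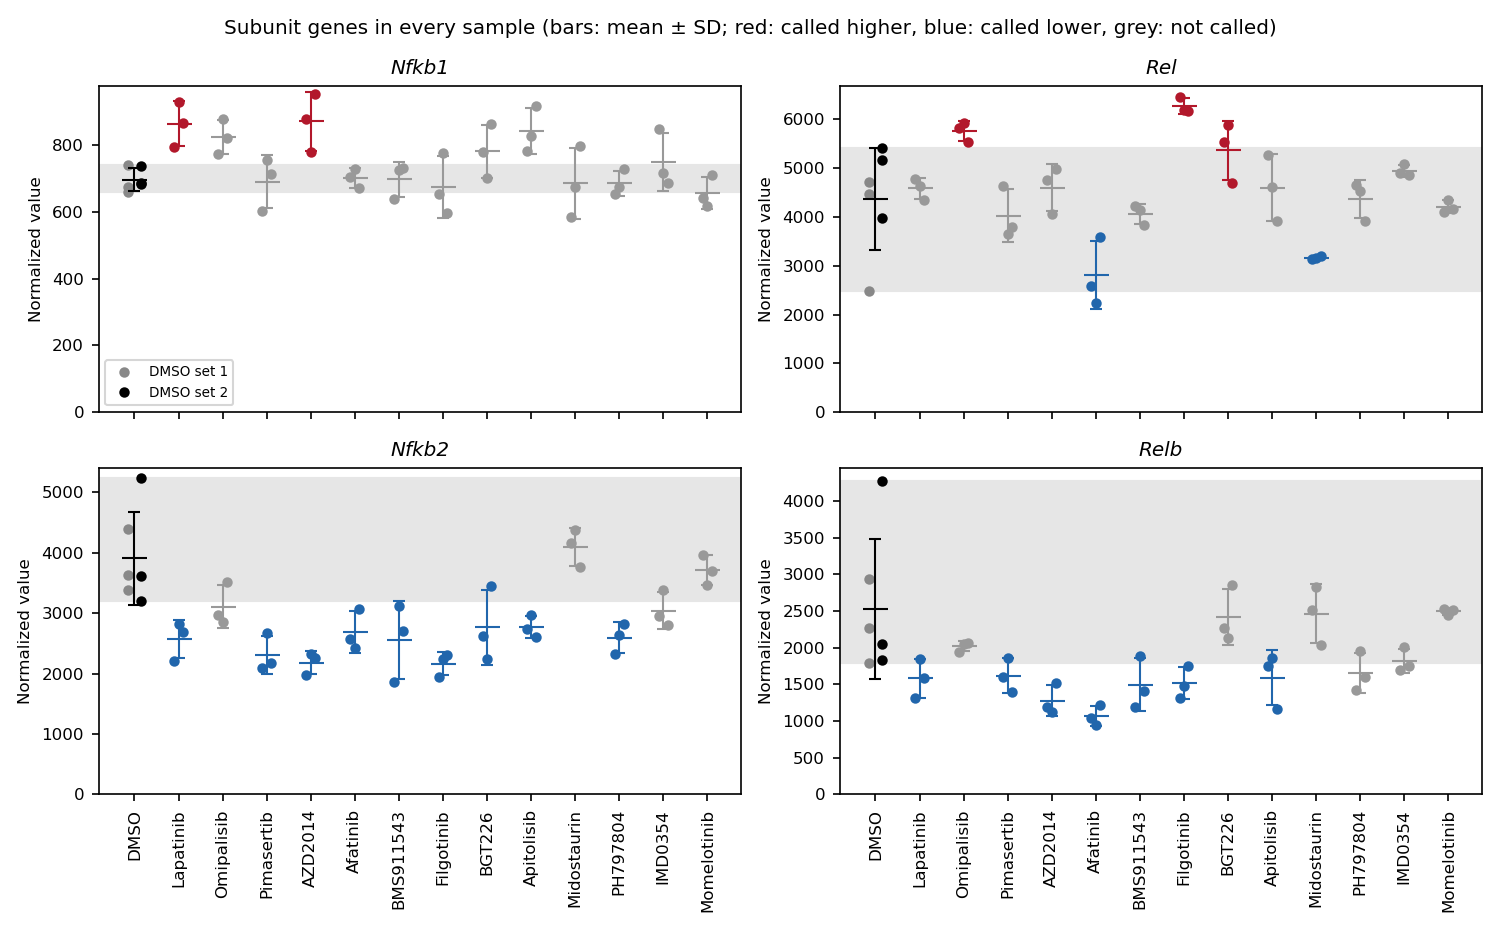
Normalized values of the 4 subunit genes in each sample of DMSO (grey points set 1, black points set 2), of the 11 CKIs with at least 3 of the 10 genes called, and of IMD0354 and Momelotinib, with bars for the mean and SD and a grey band over the DMSO range. *Nfkb2* and *Relb* lie under the band with AZD2014 and Filgotinib, where *Rel* lies inside it with AZD2014 and above it with Filgotinib.

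Among the IκB genes, *Nfkbia* (chr12:55489409-55492647, minus strand) varied least, with a within-group SD of 0.12 on the log2 scale. Its DMSO values ran from 32236 over a median of 38061.5 to 41142. With Pimasertib they were 26465, 28549 and 26096, all below DMSO, and the log2 fold change was -0.45 (SE 0.091, adjusted p = 0.000348). PH797804, an inhibitor of p38 kinase, gave 27832, 28020 and 31553 (-0.34, adjusted p = 0.0201), and Lapatinib gave 31071, 30362 and 30007 (-0.27, adjusted p = 0.0226), also below all DMSO samples. With Omipalisib the values were 42838, 43249 and 43849, all above DMSO, by 0.23 (adjusted p = 0.0469).

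The change of *Nfkbia* with Pimasertib was called in every alternative except the one that asked for a log2 fold change of at least 1. When DMSO set 2 replicate 2 was left out, the adjusted p was 0.0650 with PH797804 and 0.0728 with Lapatinib. The rise with Omipalisib was lost without DMSO set 1 replicate 1 (adjusted p = 0.102), set 2 replicate 1 (adjusted p = 0.102) or set 2 replicate 3 (adjusted p = 0.0603). *Nfkbia* was lower with 6 CKIs in place of 3 when DMSO set 2 replicate 1 was left out.

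*Nfkbib* and *Nfkbie* encode IκBβ and IκBε, which are degraded and remade more slowly than IκBα. *Nfkbie* (chr17:45555700-45563169, plus strand) ran from 3952 over a median of 4318.5 to 5680 in DMSO. It was lowest with Filgotinib, at 2855, 2604 and 2891, and low with Pimasertib, at 3524, 3382 and 3219. It was highest with Omipalisib, at 6210, 5909 and 6742. None of these samples overlapped DMSO, and the log2 fold changes were -0.70 (SE 0.10, adjusted p = 1.39e-08), -0.43 (adjusted p = 0.00226) and 0.47 (adjusted p = 0.000106). The Filgotinib and Omipalisib calls held in every alternative but the threshold on the fold change. BGT226, with 5676, 5528 and 7330, was also called higher (0.44, adjusted p = 0.000232), and Lapatinib lower at 3994, 3748 and 3615 (-0.26, adjusted p = 0.0462). The call with Lapatinib was lost without DMSO set 1 replicate 2 (adjusted p = 0.0870) or set 2 replicate 2 (adjusted p = 0.178). Leaving out DMSO set 2 replicate 1 raised the number of CKIs with *Nfkbie* lower from 3 to 7.

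*Nfkbib* (chr7:28758251-28766644, minus strand) was called with 2 CKIs, lower with Pimasertib and higher with Omipalisib. Its DMSO values ran from 4295 over a median of 4676 to 6358. Pimasertib gave 3391, 3948 and 3497, below all of them (-0.46, SE 0.11, adjusted p = 0.00387). Omipalisib gave 6254, 6671 and 7097 (0.43, adjusted p = 0.00272), of which 1 sample lay under the highest DMSO sample. Filgotinib, where *Nfkbie* was at its lowest, left *Nfkbib* at 4633, 4400 and 4862, inside the DMSO range. Without DMSO set 2 replicate 1 *Nfkbib* was lower with 4 CKIs, and without set 2 replicate 2 it was higher with 2.

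*Nfkbiz* (chr16:55811377-55838641, minus strand) encodes IκBζ, a nuclear IκB that helps to switch on secondary response genes such as *Il6*. It was lower with 4 CKIs. In DMSO it ran from 9500 over a median of 10657 to 15380. It was at 6736, 6264 and 7252 with Afatinib, at 6449, 7408 and 6670 with Midostaurin, a broad inhibitor known for FLT3 and PKC, and at 6714, 8246 and 7600 with BMS911543, a JAK2 inhibitor. With BGT226, a PI3K and mTOR inhibitor, it was at 7880, 8957 and 7153. All 12 samples lay below DMSO. The log2 fold changes, with an SE of 0.11, were -0.73 (adjusted p = 2.36e-07), -0.71 (adjusted p = 7.73e-07), -0.57 (adjusted p = 3.04e-05) and -0.49 (adjusted p = 0.000181). All 4 held without each DMSO sample in turn.

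The order of *Nfkbiz* differed from that of the other IκB genes. Pimasertib, where *Nfkbia*, *Nfkbib* and *Nfkbie* fell, left *Nfkbiz* at 14479, 10685 and 12227, inside the DMSO range. With Omipalisib, where those 3 genes rose, *Nfkbiz* stood at 10186, 10654 and 9423.

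*Tnfaip3* (chr10:19000910-19015410, minus strand) encodes A20, an enzyme that trims ubiquitin chains and so ends NF-κB signalling. It had the widest spread in DMSO on the log2 scale, from 3424 over a median of 5852 to 9371, and it was lower with 7 CKIs. Afatinib brought it to 2813, 1911 and 2769, PH797804 to 2959, 3193 and 2618, and Filgotinib to 3342, 3232 and 2980. These 9 samples were below every DMSO sample. The log2 fold changes were -1.20 (SE 0.17, adjusted p = 5.52e-08), -0.96 (adjusted p = 5.58e-05) and -0.83 (adjusted p = 0.000105). Together with *Relb*, also with Afatinib, this was 1 of the 2 called changes of more than 1 on the log2 scale.

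AZD2014 gave *Tnfaip3* values of 3524, 2300 and 2840 (-0.99, adjusted p = 1.88e-06), and BMS911543 gave 3371, 3526 and 3191 (-0.75, adjusted p = 0.000633). The falls with Apitolisib, a PI3K and mTOR inhibitor, and Pimasertib (-0.57 and -0.55) were lost without DMSO set 2 replicate 2, which had the 9371 (adjusted p = 0.115 and 0.103), and 5 CKIs were then left. Without DMSO set 1 replicate 3, which had the 3424, *Tnfaip3* was lower with 12 CKIs. It was higher with Omipalisib alone, at 8092, 8289 and 7312 (0.48, adjusted p = 0.0298), inside the DMSO range, and this call was lost without DMSO set 1 replicate 3 (adjusted p = 0.161) or set 2 replicate 3 (adjusted p = 0.0786).

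*Tnip1* (chr11:54910787-54962940, minus strand) encodes ABIN1, a ubiquitin-binding partner of A20. It was higher with 7 CKIs, the most of the 10 genes with all samples, while without DMSO set 2 replicate 2 it was higher with 3 CKIs and *Rel* with 4. Its DMSO values ran from 2186 over a median of 2463.5 to 2726. Midostaurin gave 3645, 3442 and 4142, Tofacitinib 3396, 3886 and 3501, and PF04691502, a PI3K and mTOR inhibitor, 4009, 3180 and 3268. No sample of these 3 CKIs overlapped DMSO. *Tnip1* rose by 0.62 (SE 0.16, adjusted p = 0.00926), 0.56 (adjusted p = 0.0255) and 0.51 (adjusted p = 0.0244) on the log2 scale. The other 4 CKIs were AZD2014, Omipalisib, BMS911543 and Lapatinib, between 0.43 and 0.51, and their samples lay above all of DMSO too.

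Of these rises, 3 remained in number without DMSO set 2 replicate 2 and 4 without DMSO set 1 replicate 3. The rise of *Tnip1* with Midostaurin held without each DMSO sample in turn, while those with Tofacitinib (adjusted p = 0.0716) and PF04691502 (adjusted p = 0.0615) were lost without set 2 replicate 2. That with Tofacitinib was also lost without set 1 replicate 3 (adjusted p = 0.0504), and those with BMS911543 and Lapatinib without any of set 1 replicates 1 and 3 and set 2 replicates 2 and 3 (adjusted p between 0.0502 and 0.109). The mitochondrial share was 1.35 to 4.01% with Tofacitinib and 1.71 to 4.45% with PF04691502, and in the fit with that share and the replicate number the adjusted p of *Tnip1* was 0.164 and 0.129. *Tnfaip3* and *Tnip1*, whose products work together, went in opposite directions with AZD2014 and BMS911543.

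**Figure D3:**
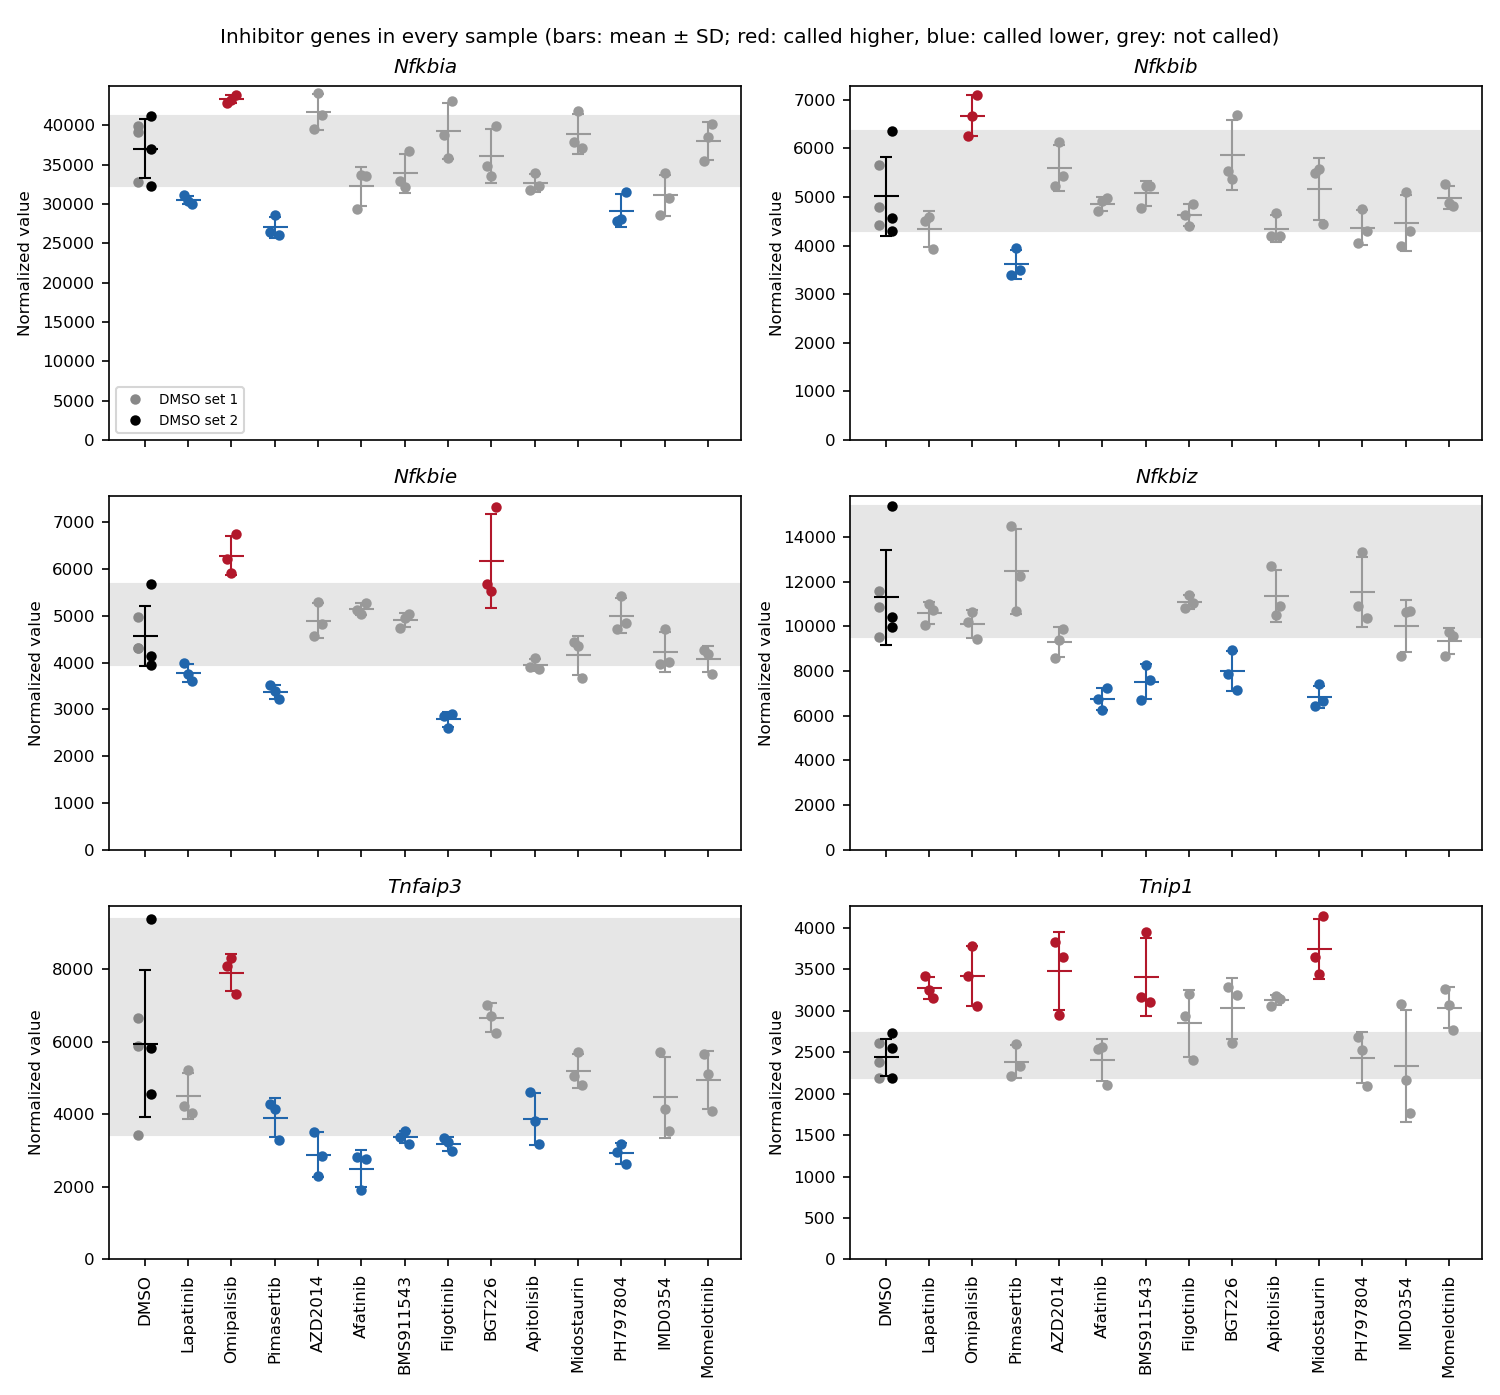
Normalized values of the 6 inhibitor genes in each sample, drawn as for the subunit genes. *Nfkbia*, *Nfkbib* and *Nfkbie* were above DMSO or at its top with Omipalisib and below it with Pimasertib, *Nfkbiz* was below it with 4 CKIs, and *Tnip1* was above it in the 5 called CKIs shown.

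**Figure D4:**
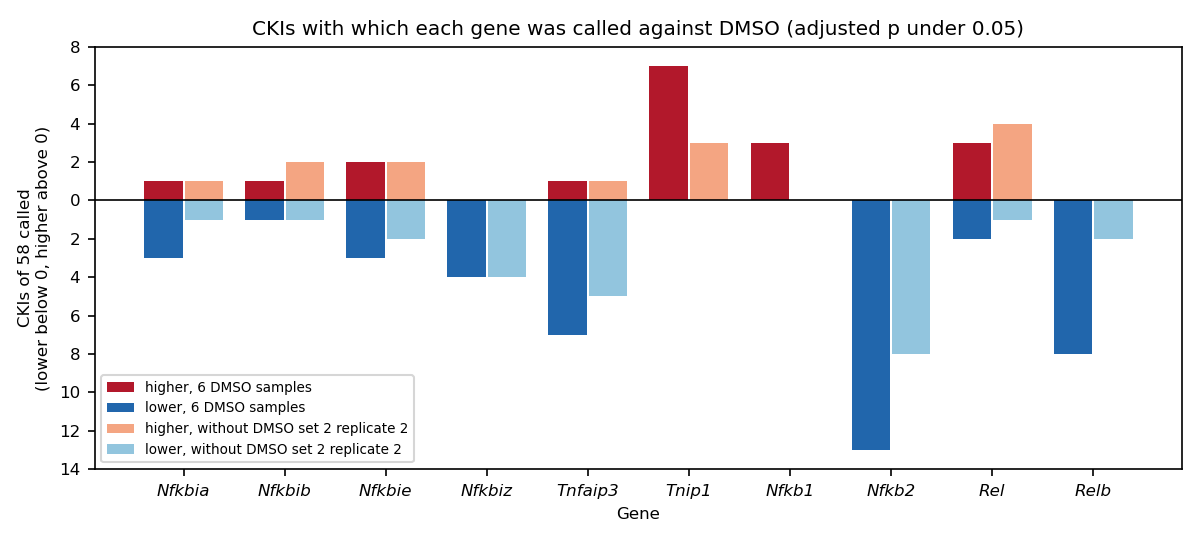
Number of CKIs, of 58, with which each gene was called higher (above 0) or lower (below 0), with all 6 DMSO samples (dark bars) and without DMSO set 2 replicate 2 (light bars). *Nfkb2* went from 13 to 8 lower, *Relb* from 8 to 2, *Tnip1* from 7 to 3 higher and *Nfkb1* from 3 higher to none, while *Nfkbiz* stayed at 4.

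Read by CKI, 11 CKIs had at least 3 of the 10 genes called, and the share of all 12714 genes called in the same direction is the background for each. With Omipalisib 6 were higher (*Nfkbia*, *Nfkbib*, *Nfkbie*, *Tnfaip3*, *Tnip1* and *Rel*), against 17.5% of all genes. Under the median of ratios scaling this became 1 higher and 1 lower. Pimasertib had 6 lower (*Nfkbia*, *Nfkbib*, *Nfkbie*, *Tnfaip3*, *Nfkb2* and *Relb*), against 5.68% of all genes. The mitochondrial share with Pimasertib was 3.24 to 4.29%, above all DMSO samples, and with that share and the replicate number in the fit 2 of the 10 genes were lower.

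Lapatinib had 2 higher (*Tnip1* and *Nfkb1*) and 4 lower (*Nfkbia*, *Nfkbie*, *Nfkb2* and *Relb*), against 18.1% and 5.26% of all genes. Without DMSO set 2 replicate 2 only 1 lower call was left. The mitochondrial share was 1.92 to 3.71% in these samples, and all 6 calls were lost with that share and the replicate number in the fit. Apitolisib had 3 lower (*Tnfaip3*, *Nfkb2* and *Relb*), against 3.2%, and these too were lost without that DMSO sample and in the fit with the mitochondrial share, which was 1.49 to 4.04%.

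Afatinib had 5 lower (*Nfkbiz*, *Tnfaip3*, *Nfkb2*, *Rel* and *Relb*), against 12.8% of all genes, and 5 were lower without each DMSO sample in turn. The call of *Nfkb2* was lost without replicate 1 or replicate 2 of every CKI. That of *Rel* was lost without replicate 2 of every CKI, and without replicate 1 or 2 in CKIs and DMSO alike. When samples were left out the adjusted p reached 0.473 for *Nfkb2* and 0.372 for *Rel*. With Afatinib *Nfkbie* was at 5115, 5036 and 5280 and *Nfkbib* at 4702, 4920 and 4970, inside the DMSO range. Filgotinib had 4 lower (*Nfkbie*, *Tnfaip3*, *Nfkb2* and *Relb*) and *Rel* higher, against 14.6% and 6.1%. BMS911543, a JAK inhibitor as is Filgotinib, had 4 lower (*Nfkbiz*, *Tnfaip3*, *Nfkb2* and *Relb*) and *Tnip1* higher, against 8.08% and 0.472%, and without DMSO set 2 replicate 2 it had 3 lower. Tofacitinib, another JAK inhibitor, had *Tnip1* and *Nfkb1* higher, against 9.02% of all genes, and both calls were lost without DMSO set 2 replicate 2, under the median of ratios scaling and in the fit with the mitochondrial share. *Nfkbiz* was at 10801, 11411 and 11056 with Filgotinib and at 10906, 11019 and 10582 with Tofacitinib, where it had been between 6714 and 8246 with BMS911543.

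Several CKIs act on PI3K, mTOR or both. AZD2014 had 3 lower (*Tnfaip3*, *Nfkb2* and *Relb*) and 2 higher (*Tnip1* and *Nfkb1*), against 13.5% and 6.06% of all genes. BGT226 had 2 lower (*Nfkbiz* and *Nfkb2*) and 2 higher (*Nfkbie* and *Rel*), against 6.32% and 24.1%, and under the median of ratios scaling only the 2 lower calls. *Tnfaip3* averaged 7898 with Omipalisib, 6654 with BGT226, 5421 with PF04691502, 3862 with Apitolisib and 2888 with AZD2014. These differences between CKIs were not tested.

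Midostaurin, used at a concentration aimed at the kinase TBK1, had 2 lower (*Nfkbiz* and *Rel*) and *Tnip1* higher, against 1.93% and 2.63% of all genes. PH797804 had 3 lower (*Nfkbia*, *Tnfaip3* and *Nfkb2*), against 1.25%, and 1 without DMSO set 2 replicate 2. Its *Nfkbie* values were 4728, 5432 and 4849, inside the DMSO range.

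Which CKIs reached 3 genes depended on the replicate block, under which they were 15 in place of 11. The CKIs added were TG100115, Lenvatinib, MK2206 and Bafetinib, named after these values were seen. In the first and second of these every sample deviated together with the DMSO samples of its number, and in MK2206 and Bafetinib not every one did. TG100115 went to 5 lower (*Nfkbia*, *Nfkbib*, *Nfkbie*, *Nfkb2* and *Relb*, adjusted p between 0.0289 and 0.0487), against 1.38% of all genes under the block, and Lenvatinib from 1 lower to 4 lower and 1 higher, against 3.66% for lower. Without the block the adjusted p of those 5 genes with TG100115 lay between 0.0771 and 0.101. The mitochondrial share was 1.69 to 3.82% with TG100115, and with that share and the block the 5 calls were lost (adjusted p between 0.441 and 0.533).

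IMD0354 is an inhibitor of IKKβ, the IκB kinase of the canonical arm. Limma called 0 of the 10 genes with it, against 0.37% of all genes called in either direction. At an unadjusted p under 0.05 there were 4 of the 10, against 8.86% of all genes. *Nfkbia* was at 28648, 33874 and 30694 (-0.25, unadjusted p = 0.0068, adjusted p = 0.313), and *Nfkb2* at 2952, 3379 and 2804 (-0.34, adjusted p = 0.467). Both overlapped DMSO. Momelotinib, a JAK inhibitor, was used at a concentration aimed at the kinase IKKε, and the authors report that it bound TBK1 at a higher one. It likewise had 0 called by limma, against 0.787% of all genes. At an unadjusted p under 0.05 there was 1 of the 10, against 10.4% of all genes. That gene was *Nfkbiz*, at 8688, 9749 and 9577 (-0.26, adjusted p = 0.364). A change of 0.23 in *Nfkbia* was called with Omipalisib, where far more genes passed the adjustment.

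Some of the 10 genes varied together over the 59 groups. Between group means the Spearman correlation was 0.84 for *Nfkb2* and *Relb*, 0.73 for *Nfkbia* and *Nfkbib*, and 0.72 for *Nfkbib* and *Nfkbie*. *Tnfaip3* followed *Nfkb2* at 0.64, and *Tnip1* followed *Nfkb1* at 0.57. The lowest correlation was that of *Nfkbiz* and *Tnip1*, at -0.38. These values describe groups that share libraries prepared and scaled in 1 way, and the deviations of the 180 samples from their group means correlated as well, at 0.77 for *Nfkb2* and *Relb* and 0.86 for *Nfkbib* and *Nfkbie*.

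**Figure D5:**
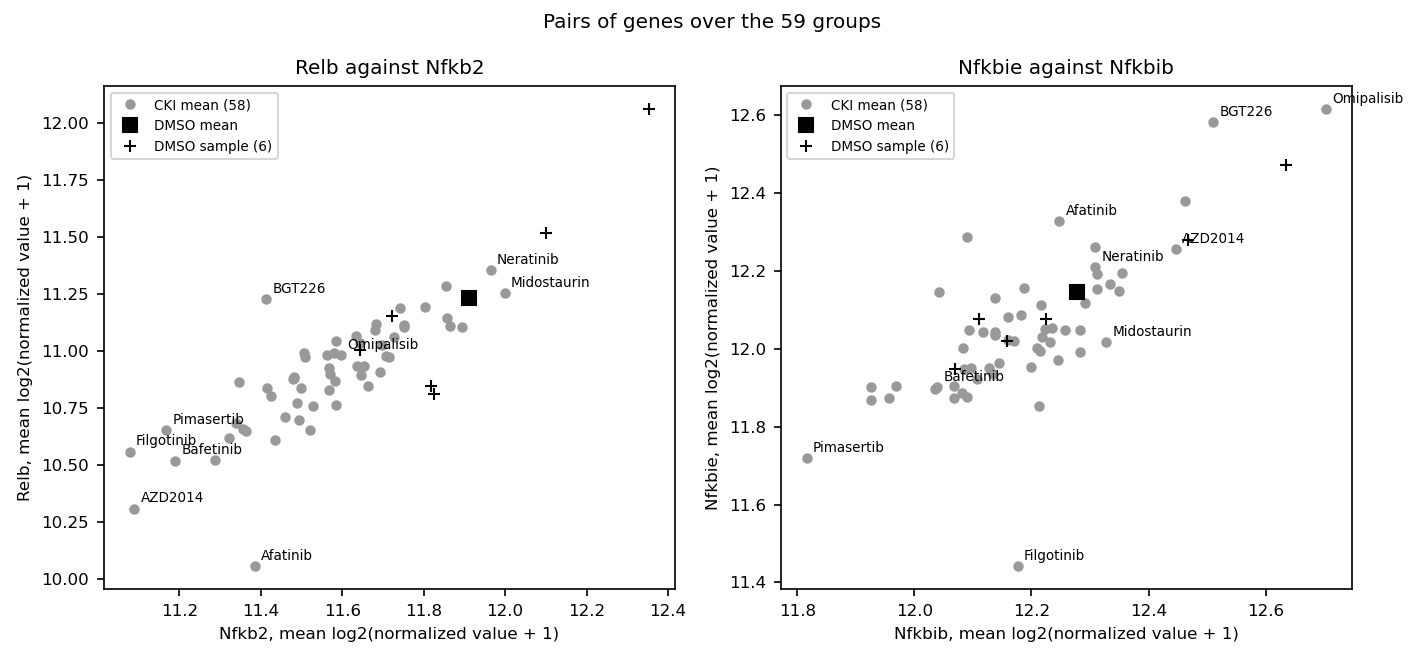
Mean log2(normalized value + 1) of *Relb* against *Nfkb2* (left) and of *Nfkbie* against *Nfkbib* (right), with grey points for the 58 CKIs, a square for the DMSO mean and crosses for the 6 DMSO samples. The DMSO mean lies near the top of the left plot, where the DMSO samples spread along the same line as the CKIs, and Filgotinib lies apart at the bottom of the right plot.

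Outside the family, the genes whose group means were ordered most like those of *Nfkb2* were *Vasp*, *Plcb3* and *Cemip2* (Spearman 0.86, 0.84 and 0.82 over 59 groups). For *Relb* they were *Ifngr2*, *Gch1* and *Sh3bp4* (0.90, 0.85 and 0.84), and for *Tnfaip3* they were *Cpeb4*, *Avl9* and *Rab5a* (0.88, 0.85 and 0.84). These are the highest values among all genes tested outside the family. Deviations of samples from their group means correlated as well, in the same order at 0.91, 0.73 and 0.73 with *Nfkb2*. They stood at 0.84, 0.89 and 0.79 with *Relb*, and at 0.85, 0.68 and 0.55 with *Tnfaip3*.

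Around these 10 genes, 53 further genes of the pathway were tested, from the receptors to the kinases, adaptors and ubiquitin enzymes. At least 1 CKI called 48 of them, with 80 calls higher and 80 lower, each 2.6% of the 3074 pairs. Of all genes tested 74.8% were called with at least 1 CKI, and 2.52% of their pairs were called higher and 1.65% lower, so that the share called higher lay near that of all genes. Without DMSO set 2 replicate 2 there were 42 higher and 50 lower, without DMSO set 1 replicate 3 there were 48 higher and 83 lower, and without DMSO set 2 replicate 1 there were 121 higher and 97 lower. The 3 receptor genes had 7 calls, all higher, and the 20 adaptor genes had 30 higher and 42 lower. The 12 genes of the IκB kinases and their partners had 17 higher and 18 lower, the 14 ubiquitin editors 23 and 16, and the 4 remaining subunit and IκB genes 3 and 4.

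*Myd88*, the adaptor that links TLR4 to the kinases, was lower with 10 CKIs, the most of the 53. It averaged 3898 in DMSO, 2379 with Filgotinib (-0.71, adjusted p = 3.89e-06) and 2473 with BGT226 (-0.66, adjusted p = 5.55e-06), and it was also lower with IMD0354 at 2786 (-0.48, adjusted p = 0.0415). *Map3k8*, the kinase TPL2 that p105 binds, was lower with 5 CKIs and lowest with IMD0354, at 1370 against 2192 in DMSO (-0.69, adjusted p = 0.00528). *Chuk*, which encodes IKKα, the kinase of the non-canonical arm, was lower with 6 CKIs. It averaged 134 in DMSO, 40 with AZD2014 (-1.73, adjusted p = 9.62e-11), 47.3 with Filgotinib (-1.51, adjusted p = 1.52e-08) and 60.7 with BMS911543 (-1.15, adjusted p = 2.05e-05), and it was also lower with Afatinib, Bafetinib and PF04691502. Over the 58 CKIs the median log2 fold change was -0.295 for *Myd88*, -0.310 for *Map3k8* and -0.252 for *Chuk*, and that of all genes and CKIs was 0.0621. Every CKI was set against the same DMSO mean.

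*Traf1*, an adaptor that NF-κB itself induces, was higher with 8 CKIs, up to 4181 with BGT226 against 1930 in DMSO (1.11, adjusted p = 2.13e-06). *Zfand5* was higher with 8 CKIs and *Otulin*, which removes linear ubiquitin chains, with 6. *Ticam2*, the TRAM adaptor of TLR4, fell to 149 with Pimasertib from 379.5 in DMSO (-1.33, adjusted p = 1.15e-11) and rose to 821 with Omipalisib (1.12, adjusted p = 4.41e-10) and 813 with BGT226 (1.10, adjusted p = 4.47e-10). *Bcl10* was lower with 6 CKIs and *Traf5* with 5, both lowest with Pimasertib. *Irak2*, a kinase-like partner of MyD88, was higher with 4 CKIs and highest with BGT226, at 2308 against 1412 (0.71, adjusted p = 1.35e-10), and lower with Volasertib. Over the 58 CKIs the median log2 fold change was 0.224 for *Traf1*, 0.497 for *Zfand5*, 0.490 for *Otulin* and -0.192 for *Ticam2*. It was -0.177 for *Bcl10*, -0.492 for *Traf5* and -0.0635 for *Irak2*, each against the same DMSO samples.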

How the data were processed

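PolyA RNA of 180 BMDM samples was sequenced after SMART-seq2 amplification and Tn5 tagmentation. The authors aligned reads to mm10 with TopHat2 2.1.1, removed blacklisted regions with bedtools 2.29.2, counted reads on exons of RefSeq genes, scaled samples on invariant genes and tested with DESeq2 in R 3.6.2. The deposited values are these scaled counts rounded to whole numbers, a score with no fixed unit. Read depth is therefore known only through their sums per sample, and no count test was run.

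Groups came from the labels, and 0 value columns lacked a sample. CKIs were tested one at a time against the 6 DMSO samples with the moderated test of limma 3.58.1 in R 4.3.3 (variance trend, pseudocount 1, mean of at least 10, Benjamini-Hochberg adjustment within a CKI). The fit was tried on simulated data whose samples were independent and shared the same dispersion. Such data cannot show how it behaves with samples that deviate together or with a wider spread in DMSO. The methods speak of independent biological replicates without naming animals, so p-values measure the spread between these samples. Genes and lists were chosen with earlier results of these data known. All 10 genes are named, in full for up to 3 rises and 3 falls without overlap with DMSO. CKIs are described one by one with at least 3 genes called, besides IMD0354 and Momelotinib, and the 10 other pathway genes named are those called most often. Figures were drawn with matplotlib 3.10.9 in Python 3.11.15. Alternatives were other pseudocounts, filters, scaling, references, fits and adjustments, a replicate block, and leaving out samples. A result that needs a withheld item is not reported here.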

Additional observations from a re-analysis of the deposited data

Results flagged for a closer look

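*Nfkbiz* in DMSO set 2 replicate 2 had a normalized value of 15380, with the other 5 DMSO samples between 9500 and 11594, and its gap to the nearest of them was too large a part of the range by Dixon's test over 6 samples. Chance flags about 1 in 20 such groups, and 10 genes were looked at. The 4 calls of *Nfkbiz* held without this sample.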

How the results depend on the processing

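Of the 59 calls, 59 held with a pseudocount of 0.5 or 10, a filter at a mean of 50 or the replicate block. Without the variance trend 57 held, with median of ratios scaling 46, and with no filter 43. With p-values adjusted over all genes and CKIs 39 held, and with either DMSO set alone 34. When only the groups compared were fitted 17 held, and there fewer samples set the spread. On the log2 scale the SD of DMSO was 0.41 for *Rel*, 0.49 for *Tnfaip3* and 0.48 for *Relb*, against 0.19, 0.25 and 0.29 within all groups. DMSO also spread more than that for the other genes, except *Nfkb1* (0.070 against 0.16) and *Tnip1* (0.13 against 0.23). The SEs of the main fit come from the spread within all groups. Without replicate 1, 2 or 3 of every CKI, 26, 34 and 42 of the 59 calls held. Without that replicate number in CKIs and DMSO alike, 36, 19 and 34 held. Leaving out 1 DMSO sample at a time kept 35 to 57. No call changed direction. The main counts were 18 calls higher and 41 lower over 17 CKIs, and 80 higher and 80 lower for the other pathway genes. With DMSO set 1 alone they were 11 and 24, and 41 and 39. DMSO set 2 alone gave 4 higher, and 36 higher for the pathway. The wider adjustment gave 7 higher and 40 higher for the pathway, median of ratios scaling 6 and 50, and no filter 10 and 49. Fits of only the groups compared gave 5 and 12 in 7 CKIs, and 47 and 22. With a log2 fold change of at least 1 required there were 0 and 2 in 1 CKI, and 27 and 14. For these changes the cause was not tested. Without replicate 1 of every CKI there were 5 higher and 21 lower in 9 CKIs, and 35 and 34, and without replicate 2 of every CKI 8 higher, and 43 higher for the pathway. Over all fits that left out replicates there were 3 to 19 calls higher, 12 to 55 lower, 9 to 22 CKIs, and 31 to 121 higher and 21 to 97 lower for the pathway. Between the DMSO sets 0 of the 10 genes were called by limma in any fit run, with 1 at an unadjusted p under 0.05 in the main one. Rounded values of low genes limit what can be seen in them, and the 10 genes lie well above that level.

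With the replicate block there were 20 calls higher and 65 lower in 25 CKIs in place of 17, and 150 higher and 130 lower for the pathway. The replicate numbers were not shown to pair all samples, since every same-numbered correlation with DMSO exceeded 0.1 in 34 of 58 CKIs (range -0.523 to 0.726), and 126 of 174 CKI samples were closest to DMSO samples of their own number. With the block and the mitochondrial share together, 40 of the 59 calls held.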
